A study of Mus musculus with 2 samples.

Results

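The CXC chemokines and CXC receptors described here are 10 genes chosen by name: the ligands Cxcl1, Cxcl2, Cxcl3, Cxcl9, Cxcl10 and Cxcl16 and the receptors Cxcr2, Cxcr3, Cxcr4 and Cxcr5. All 10 were listed in both tables of counts, out of 24785 genes listed in either table. The cells were living CD45+ leukocytes sorted from digested lungs of wild-type C57BL/6N mice and measured cell by cell with the BD Rhapsody system, which tags every caught mRNA molecule with its own barcode, the unique molecular identifier (UMI). The BLM library held cells taken on day 15 after 50 µg of intratracheal bleomycin, an antitumour drug used to bring about lung fibrosis in mice, given at 10 to 16 weeks of age, and the naive library held cells of lungs with no treatment. Each library was a pool of 3 mice, with 1 library per group and no replicate. Library, preparation and group therefore cannot be told apart, no test between groups was possible, and every interval below is a 95% interval of counting error only.

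CXC chemokines are small secreted proteins that guide leukocytes along gradients through G protein-coupled receptors. Cxcl1, Cxcl2 and Cxcl3 act on Cxcr2 and draw neutrophils, whereas Cxcl9 and Cxcl10 are induced by interferon and act on Cxcr3 of activated T cells and NK cells. Cxcl16 is made as a membrane-bound form and is the ligand of Cxcr6, while Cxcr4 is the receptor of Cxcl12 that holds leukocytes in the marrow, and Cxcr5 is the receptor of Cxcl13 that leads B cells into follicles.

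After filtering, 4393 BLM cells (21216094 UMIs, median 2381 per cell) and 3820 naive cells (16973497 UMIs, median 2701.5) were kept, and 17 kept cell barcodes occurred in both libraries. Clusters were named from marker genes, no CXC gene among them, and every class name below means cells like that class. Ptprc, which encodes CD45, was detected in at least 78.3% of cells for every named class of either library. It was detected in 38.8% (BLM) and 51.6% (naive) of cluster 10, which stayed unnamed and at a finer resolution split into stromal-like and basophil-like cells. The classes of BLM and naive macrophages differed in markers. In the alveolar macrophage class 4 of 8 alveolar markers were at least 2-fold lower in BLM (summed level 12220 CPM against 14888 CPM in naive, CPM being UMIs per 1000000 UMIs of the same cells), and 5 of 7 interstitial or recruited macrophage markers were at least 2-fold higher (1866 against 513 CPM). Of 5 classical monocyte markers in that class 3 were at least 2-fold higher in BLM and 1 was at least 2-fold lower (summed level 4278 against 486 CPM). Fabp1 stood at 3.67 CPM in BLM and 390.1 CPM in naive, and C1qb at 352 and 9.93 CPM. Without integration of the libraries the alveolar class held 0 BLM and 622 naive cells, and 936 BLM cells with 28 naive cells formed a macrophage cluster led by Mmp12, Spp1 and Arg1. The interstitial or recruited class then held 85 BLM and 70 naive cells, against 468 and 126 with integration. The cluster of 936 BLM cells may therefore hold cells of both macrophage classes. A different level in like cells and a different make-up of the class therefore cannot be told apart for macrophages.

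The upstream sequences of 4 ligands are shown because the 3 Cxcr2 ligands and Cxcl10 share a motif there. Cxcl3, Cxcl1 and Cxcl2 lie in this order within a short stretch of chromosome 5 on the + strand (GRCm38, GENCODE vM21 genes at chr5:90786103-90789600, chr5:90891241-90893115 and chr5:90903871-90905938). Cxcl9 (chr5:92321347-92328079) and Cxcl10 (chr5:92346638-92348889) are neighbours on the - strand of the same chromosome. Windows of 250 bases before the RefSeq start (GRCm38.p6) were found for 8 of the 10 members and searched on both strands for GGAANTTCC, a motif of the NF-kB type, AANNGAAA (IRF type) and TTCNNNGAA (STAT type). The runs below, 5′ to 3′ on the strand of the gene, cover the 190 bases from 220 to 31 bases before the start, at chr5:90891025-90891214 for Cxcl1, chr5:90903679-90903868 for Cxcl2, chr5:90785881-90786070 for Cxcl3 and chr5:92348920-92349109 for Cxcl10. Capitals mark the motif matches.
Cxcl1: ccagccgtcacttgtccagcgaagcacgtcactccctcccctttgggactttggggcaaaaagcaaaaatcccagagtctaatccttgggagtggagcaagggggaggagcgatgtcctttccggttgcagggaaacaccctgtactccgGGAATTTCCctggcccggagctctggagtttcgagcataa
Cxcl2: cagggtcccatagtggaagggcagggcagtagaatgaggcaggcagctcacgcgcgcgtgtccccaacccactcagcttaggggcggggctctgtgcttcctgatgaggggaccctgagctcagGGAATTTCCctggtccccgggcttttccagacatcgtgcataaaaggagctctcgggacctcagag
Cxcl3: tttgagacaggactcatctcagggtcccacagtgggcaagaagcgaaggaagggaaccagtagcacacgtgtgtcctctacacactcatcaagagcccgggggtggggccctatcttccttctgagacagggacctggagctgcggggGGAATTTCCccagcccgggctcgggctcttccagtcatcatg
Cxcl10: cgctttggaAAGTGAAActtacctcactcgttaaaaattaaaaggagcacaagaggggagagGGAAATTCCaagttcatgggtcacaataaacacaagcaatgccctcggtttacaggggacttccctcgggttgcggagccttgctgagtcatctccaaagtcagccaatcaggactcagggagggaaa
The NF-kB-type letters began 70 bases before the start in Cxcl1, 96 bases in Cxcl2, 72 bases in Cxcl3 and 158 bases in Cxcl10. They occurred in 0.813% of all 32851 promoter windows of the same length. Cxcl10 also held the IRF-type letters 211 bases before its start, a match found in 21.3% of all windows. The STAT-type letters, found in 7.02% of windows, were in none of the 8 member windows, and the windows of Cxcl9, Cxcr2, Cxcr3 and Cxcr4 held none of the 3 motifs. A match is a description of the letters and not evidence of binding.

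**Figure D1:**
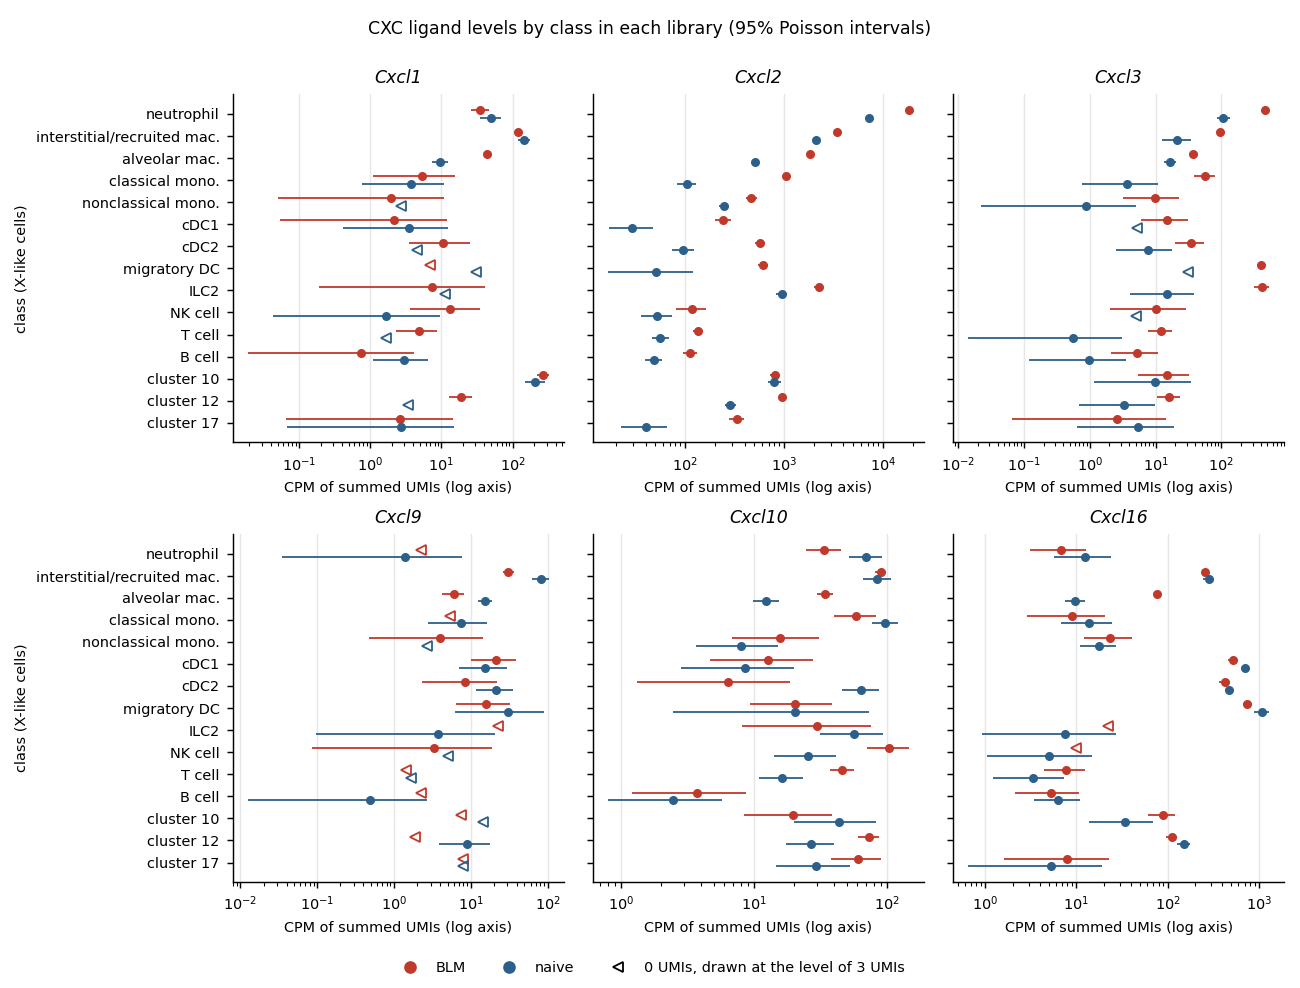
Level of each CXC ligand (CPM of summed UMIs, log axis) in each class of the BLM library (red) and the naive library (blue). Points are levels, bars are exact Poisson 95% intervals of counting error, and open triangles mark 0 UMIs and are drawn at the level that 3 UMIs would give. Cxcl2 was highest in neutrophils, at 18230 CPM in BLM and 7254 CPM in naive, and Cxcl16 in dendritic cell classes.

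Over all kept cells, 3 members were at least 2-fold higher in BLM (Cxcl1, Cxcl2 and Cxcl3), 1 was at least 2-fold lower (Cxcr5) and 6 lay within 2-fold. Of all genes with 20 or more UMIs over both libraries 11.9% were as far apart. These totals mix class sizes with levels, so the comparison was repeated inside the 10 classes that held at least 50 cells of each library. In alveolar macrophages 7 of 9 members with 20 or more UMIs were at least 2-fold apart, 5 higher and 2 lower in BLM, beside 16.3% of all genes. Among interstitial or recruited macrophages 3 of 8 were, 1 of them higher, beside 17.2% of all genes. In either macrophage class the 2 lower members were Cxcl9, where 1 naive cell held most UMIs, and Cxcr2, at counts close to background. In neutrophils Cxcl2 and Cxcl3 were at least 2-fold higher and Cxcl10 at least 2-fold lower among 6 members, beside 10.6% of all genes. Classical monocytes had 2 of 4 members at least 2-fold higher (8.81% of all genes in either direction), and nonclassical monocytes had 0 of 3 as far apart (7.95% of all genes). Among dendritic cells the counts were 2 of 3 in cDC1, beside 15.2% of all genes, and 4 of 6 in cDC2, beside 13.2%. For lymphocytes they were 4 of 7 in T cells (6.33% of all genes), 2 of 4 in NK cells (8.85%) and 1 of 4 in B cells (6.38%). These lymphocyte counts include Cxcl2 at a low level taken as background below, and Cxcl10 in NK cells, where 1 cell held most UMIs. The T cell count also includes Cxcl16 with 16 and 6 UMIs, and Cxcl3 with 25 UMIs in BLM and 1 in naive. The median log2 ratio of BLM to naive over the members that passed the minimum ranged from -0.45 in cDC1 to 1.64 in classical monocytes, and over all genes from -0.21 in alveolar macrophages to 0.03 in cDC1. Cxcl2 was at least 2-fold higher in BLM in 8 of the 10 classes, all but interstitial or recruited macrophages and nonclassical monocytes. B, NK and T cells are among the 8, and no direction is read from them. The 8 also include cDC1, whose naive level of 29.4 CPM lay below the 48.5 to 56.5 CPM of these lymphocytes.

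**Figure D2:**
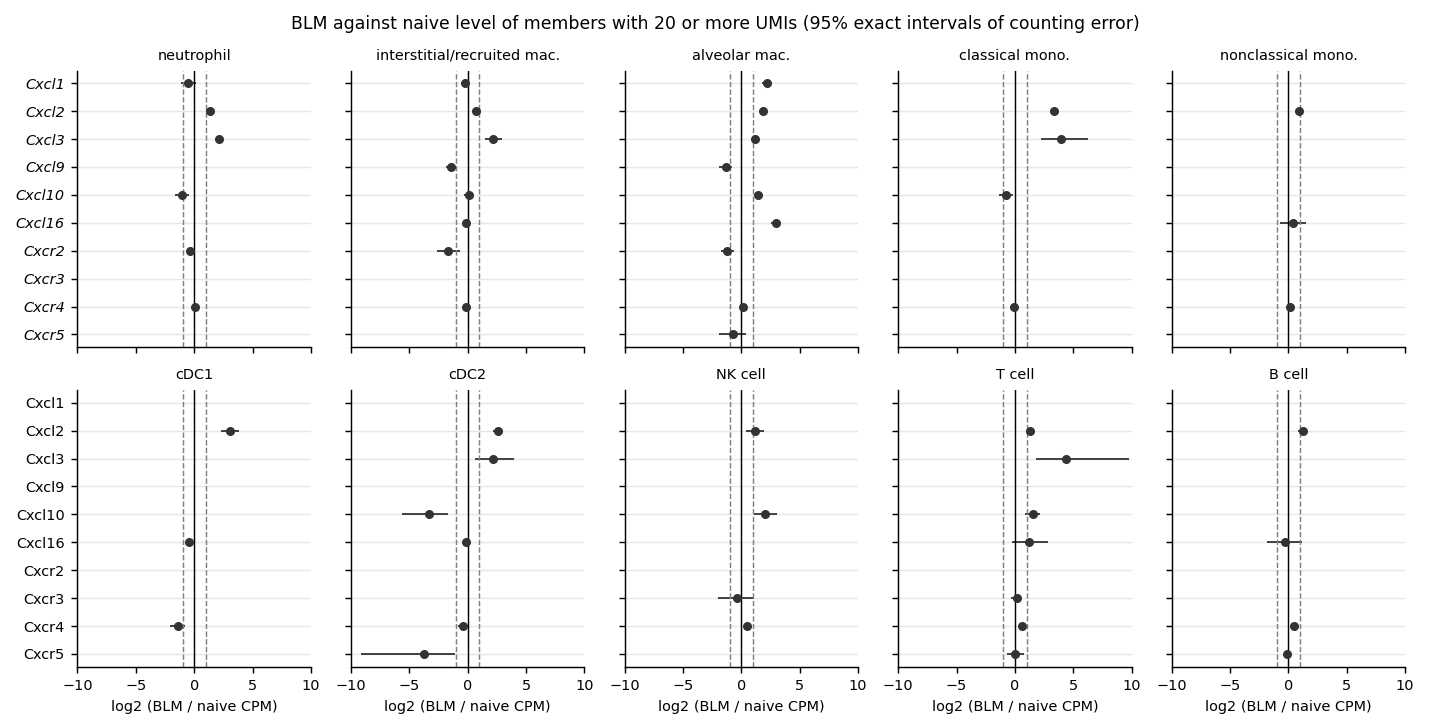
Log2 ratio of the BLM to the naive level of each member with 20 or more UMIs over both libraries, in the 10 classes compared. Bars are exact 95% intervals of counting error, the solid line marks no difference and the dashed lines 2-fold. Cxcl2 lies to the right of 0 in every panel, whereas Cxcl10 lies on either side, from -3.33 in cDC2 to 2.04 in NK cells.

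Cxcl2, a Cxcr2 ligand made within hours of stimulation by neutrophils and macrophages, accounted for 56535 UMIs in BLM and 11355 in naive. Neutrophils held 43.2% of these UMIs in BLM (95% CI 42.8–43.7%) and 45.9% in naive (45.0–46.9%), although they were 22.7% and 11.9% of the cells. Interstitial or recruited macrophages held 28.0% and 15.0%, and alveolar macrophages 21.3% and 27.0%. In neutrophils the level was 18230 CPM in BLM (18002–18460) and 7254 CPM in naive (7059–7454), a log2 ratio of 1.33 (1.29–1.37). A UMI of Cxcl2 was found in 95.8% of BLM and 81.0% of naive neutrophils, and in 95.3% and 78.6% after each cell was thinned to 1000 UMIs, with 125 and 12 shallower cells left out. The median neutrophil had 19.5 UMIs of Cxcl2 in BLM and 7 in naive, and the highest had 192 and 82. No single cell therefore carried the difference, since the top cell held 0.785% and 1.57% of the class total. At a finer resolution neutrophils split into a cluster led by Retnlg and S100a9 and a cluster led by Acod1 and Csf1. Cxcl2 was higher in BLM in each of them, at 16148 against 5493 CPM in the former and 21841 against 10972 CPM in the latter.

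**Figure D3:**
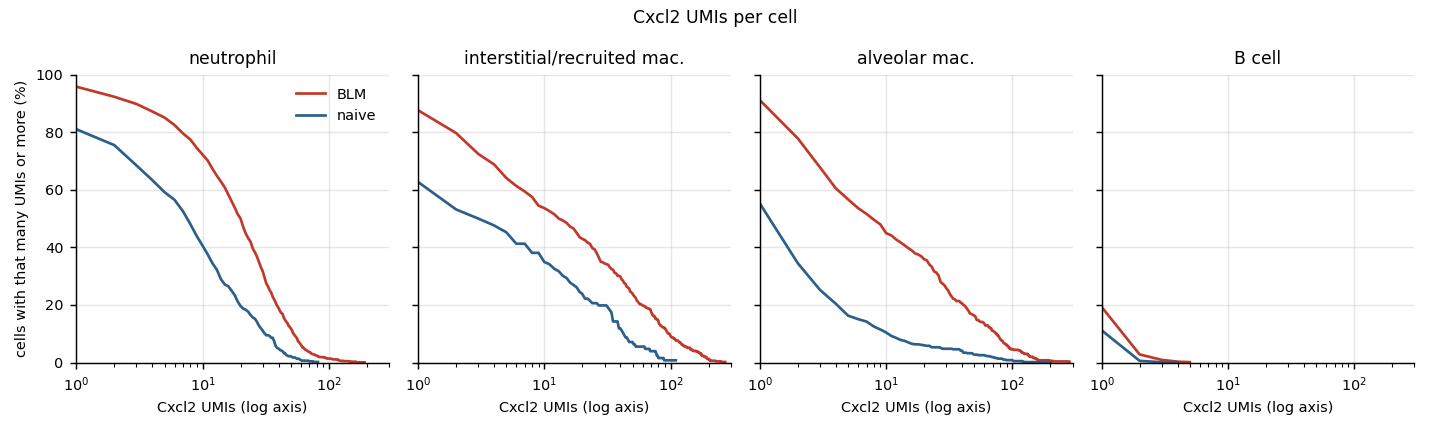
Share of cells (%) with at least the number of Cxcl2 UMIs on the x axis (log axis) in neutrophils, interstitial or recruited macrophages, alveolar macrophages and B cells of the BLM (red) and naive (blue) libraries. The BLM curve lies above the naive curve in the 3 myeloid classes, and in B cells 19.3% and 11.2% of cells had 1 UMI or more.

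Cxcl2 UMIs also occurred in cells that should lack the gene. B cells had 112 CPM in BLM and 48.5 CPM in naive, NK cells 117 and 52.3 CPM, and T cells 136 and 56.5 CPM. Per cell these were 0.236 and 0.121 UMIs in B cells (median depth 1654 and 1957 UMIs), 0.252 and 0.119 in NK cells and 0.355 and 0.150 in T cells. The low levels in the 3 lymphocyte classes were taken as background, whose source was not tested, and the lymphocyte ratios of 1.16 to 1.27 (log2) were not read as a difference in expression. T cells had the highest of these levels in both libraries, with 14 of 285 BLM UMIs in 1 cell. Neutrophils had 24.5 and 11.5 UMIs per cell, far above that background in either library. Taking the UMIs per B cell off every cell of each class left the log2 ratio at 1.33 in neutrophils and 1.88 in alveolar macrophages. For T cell classes the same step gave values from -0.53 in γδ T cells to 5.86 in CD8 T cells, so no direction can be read there.

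In macrophages and monocytes Cxcl2 was higher in BLM by different amounts. In interstitial or recruited macrophages it stood at 3418 CPM in BLM and 2132 CPM in naive (log2 ratio 0.68, 0.61–0.75), and in alveolar macrophages at 1839 and 507 CPM (1.86, 1.801–1.916). A UMI was present in 91.1% of BLM and 55.2% of naive alveolar macrophages, 51.0% and 18.1% after thinning. The median alveolar macrophage had 7 UMIs in BLM and 1 in naive. The 10% of alveolar macrophages with most Cxcl2 held 78.3% of the UMIs of the class in naive and 47.8% in BLM. Without integration, the cluster led by Mmp12, Spp1 and Arg1 had 2271 CPM in its 936 BLM cells, beside 503 CPM in the 622 naive alveolar macrophages. That cluster may hold BLM cells of both macrophage classes, so its level is not one of alveolar macrophages alone. Classical monocytes had 1055 against 104 CPM (3.34, 3.004–3.683), with a UMI in 58.9% and 23.6% of cells. Interstitial or recruited macrophage markers in this class had a summed level of 2042 CPM in BLM and 898 CPM in naive, 4 of the 6 tested were at least 2-fold higher, and their part was not tested. Nonclassical monocytes, at 467 and 248 CPM, were the class with the smaller gap among monocytes (0.91, 0.66–1.17). Over the alternatives this ratio ran from 0.34, without integration, to 2.04.

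Dendritic cells and innate lymphoid cells had lower numbers. cDC2 had 576 CPM of Cxcl2 in BLM and 96.3 CPM in naive (log2 ratio 2.58, 2.18–3.002), a ratio of 1.48 without integration. In cDC1 the values were 242 and 29.4 CPM (3.04, 2.30–3.87), but 72 of the 114 BLM UMIs lay in 1 cell, and without the top cell of each library the ratio was 1.78. The naive cDC1 level rested on 17 UMIs and lay below the naive lymphocyte levels taken as background. The cDC1 ratio is therefore not read as a difference in expression. ILC2 were too few in BLM for the comparison (39 cells against 115), and their levels were 2236 CPM (1990–2504) and 950 CPM (836–1074). A Cxcl2 UMI was found in 20 of 39 BLM and 45 of 115 naive ILC2, and 1 BLM cell held 79 of the 300 BLM UMIs. In both libraries the level of the named classes was highest in neutrophils and next in interstitial or recruited macrophages, and their intervals did not overlap. ILC2 stood above alveolar macrophages in CPM of summed UMIs, but by the mean of per-cell CPM they ranked below them in BLM.

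Cxcl3, a close relative of Cxcl2 and also a Cxcr2 ligand, was rarer, with 1659 UMIs in BLM and 218 in naive. Neutrophils held 37.2% of them in BLM and 35.3% in naive. The shares of alveolar macrophages were 14.5% and 46.3%, and those of interstitial or recruited macrophages 26.6% and 7.80%. The neutrophil level was 460 CPM in BLM and 107 CPM in naive (log2 ratio 2.10, 1.76–2.46), and 21.6% and 9.71% of neutrophils had a UMI (18.8% and 7.13% after thinning). In interstitial or recruited macrophages it was 95.5 and 21.2 CPM (2.17, 1.47–2.96). Without integration, with 85 BLM and 70 naive cells left in that class, the ratio was 0.60. In alveolar macrophages the levels were 36.7 and 16.7 CPM (1.14, 0.79–1.49). Classical monocytes had 32 UMIs in BLM and 3 in naive. Migratory dendritic cells of BLM had 177 UMIs, 153 of them in 1 of 69 cells, and BLM ILC2 had 55 UMIs in 3 of 39 cells. The high levels of these 2 classes thus rested on a few cells. All 216 BLM neutrophils with a Cxcl3 UMI also had one of Cxcl2, where the product of the shares gives 206.9 cells, and in naive 43 of 44 did, where it gives 35.6.

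Cxcl1, a Cxcr2 ligand like Cxcl2 and Cxcl3, had 1057 UMIs in BLM and 266 in naive. Interstitial or recruited macrophages held 52.5% and 43.6% of them and alveolar macrophages 27.2% and 21.8%, whereas neutrophils held 4.45% and 13.5%. In interstitial or recruited macrophages the level was 120 CPM in BLM and 145 CPM in naive (log2 ratio -0.27, -0.56–0.03). No direction can be read there, since over the alternatives the ratio ran from -0.26 to 0.36. In BLM 35 of 468 cells had these UMIs, and in naive 4 of 126, with 73 of 555 and 44 of 116 UMIs in 1 cell. Alveolar macrophages had 44.1 CPM in BLM and 9.60 CPM in naive (2.20, 1.79–2.63), in 30 of 496 and 23 of 583 cells. Of these UMIs 79 of 288 in BLM and 9 of 58 in naive were in 1 cell. Over the alternatives the ratio ran from 1.98 to 2.38. The highest level in each library was that of cluster 10, 270 CPM in BLM and 208 CPM in naive. In BLM 109 of its 110 UMIs fell in the 39 stromal-like cells of the finer clustering, and in naive all 43 lay in 1 cell. Neutrophils had 35.0 and 50.1 CPM, and 23 of 47 and 22 of 36 UMIs there were in 1 cell.

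**Figure D4:**
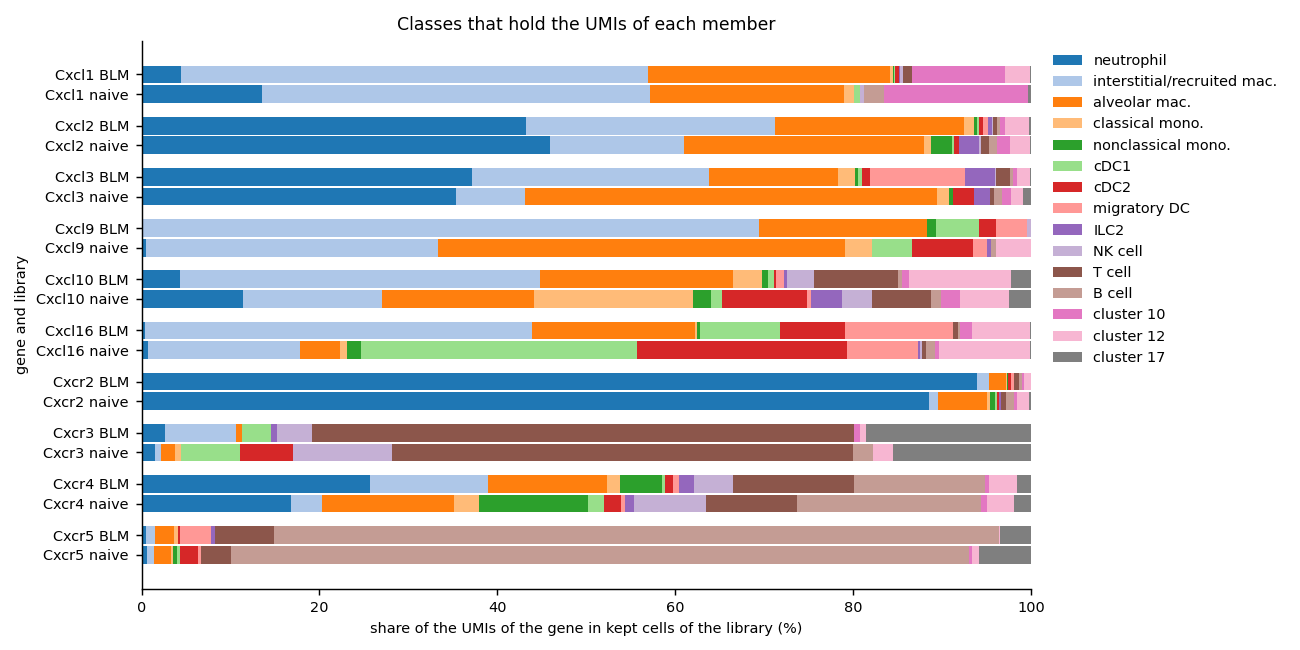
Share (%) of the UMIs of each member that each class held, in the kept cells of the BLM and the naive library. Bars add to 100% and depend on class sizes as well as levels. Cxcr2 is held by neutrophils (93.9% in BLM and 88.6% in naive) and Cxcr5 by B cells (81.5% and 83.0%), whereas Cxcl16 and Cxcr4 are spread over many classes.

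Cxcl9 and Cxcl10, the interferon-induced ligands of Cxcr3, were unlike each other. Cxcl9 had 206 UMIs in BLM and 201 in naive and was seen in 40 and 36 cells. Interstitial or recruited macrophages held 69.4% of them in BLM and alveolar macrophages 45.8% in naive. The levels of Cxcl9 in interstitial or recruited macrophages were 30.9 CPM in BLM and 82.4 CPM in naive, a log2 ratio of -1.42, but 65 of the 66 naive UMIs lay in 1 cell. Without the top cell of each library the ratio was 4.16, with 1 naive UMI left. In alveolar macrophages (5.97 and 15.2 CPM, -1.35) 76 of the 92 naive UMIs were in 1 cell, and without the top cells the ratio was 0.53. No direction can be read for Cxcl9 in either macrophage class. In cDC1 it stood at 21.2 CPM in BLM and 15.6 CPM in naive, and the 10 and 9 UMIs behind these levels did not differ beyond counting error.

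Cxcl10 had 1030 UMIs in BLM and 437 in naive. Interstitial or recruited macrophages held 40.4% and alveolar macrophages 21.7% in BLM, while in naive the sources were classical monocytes at 17.8%, alveolar macrophages at 17.2% and interstitial or recruited macrophages at 15.6%. The level in interstitial or recruited macrophages was 89.9 CPM in BLM and 84.9 CPM in naive (log2 ratio 0.08, -0.29–0.47). Without integration, with 85 BLM and 70 naive cells left in that class, the ratio was -1.48. Cxcl10 was higher in BLM than in naive in alveolar macrophages (34.3 and 12.4 CPM, 1.47, 1.08–1.86) and T cells (46.4 and 16.2 CPM, 1.51, 0.90–2.17). In NK cells the ratio of 2.04 (1.10–3.03) rested on 1 BLM cell with 27 of 31 UMIs, and was 0.00 without the top cells. Cxcl10 was lower in BLM in neutrophils (33.6 and 69.5 CPM, -1.05, -1.67 to -0.44) and in cDC2, with 3 UMIs in 3 of 76 BLM cells against 42 UMIs in 15 of 105 naive cells (-3.33, -5.66 to -1.68). In cDC2 plasmacytoid dendritic cell markers had a summed level of 289 CPM in BLM and 666 CPM in naive, with 2 of 5 at least 2-fold lower, and B cell markers one of 40.4 and 148 CPM, with both tested markers lower. Their part was not tested. Classical monocytes had 58.6 and 97.0 CPM of Cxcl10 (-0.73, -1.36 to -0.12), and 19 of 33 and 29 of 78 UMIs there were in 1 cell. Within T cells the UMIs of BLM were found in activated CD4 T cells (40 UMIs in 13 of 172 cells), Tregs (19 in 10 of 73), γδ T cells (19 in 5 of 82) and an unnamed cluster of 15 cells led by the interferon-induced genes Ifit1, Oasl2 and Ifit3 (12 in 3 cells). In naive these held 4 UMIs (47 cells), 6 (26 cells), 19 (65 cells) and 0 (13 cells), in the same order. The ratio was 0.08 (-0.91–1.08) in γδ T cells and 0.155 (-1.23–1.77) in Tregs. The part of class make-up in the T cell ratio was not tested. B cells, with 3.74 CPM in BLM and 2.45 CPM in naive, give the background for this gene. Of the cells with a Cxcl9 UMI 9 of 40 in BLM and 5 of 36 in naive also had Cxcl10, where the product of the shares gives 2.1 and 1.4.

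Cxcl16, the membrane-bound ligand that also takes up oxidised lipids, had 2734 UMIs in BLM and 1320 in naive. Its level was highest in migratory dendritic cells (754 CPM in BLM and 1082 CPM in naive, 69 and 15 cells), followed by cDC1 (520 and 710 CPM), cDC2 (423 and 475 CPM) and interstitial or recruited macrophages (257 and 282 CPM). Of these neighbours, only cDC1 and cDC2 of BLM overlapped in their intervals. A UMI was present in 94.2% of BLM migratory dendritic cells, 85.5% of cDC1 and 63.2% of cDC2. B cells had one in 0.943% of cells in BLM and 1.34% in naive, which is the background. The ratio between libraries was -0.45 (-0.68 to -0.22) in cDC1, -0.17 (-0.43 to 0.10) in cDC2 and -0.13 (-0.34 to 0.08) in interstitial or recruited macrophages. In cDC1, Ccl22, a migratory dendritic cell marker, stood at 89.2 CPM in BLM and 1474 CPM in naive. It was the only one of the 6 markers of that list with 20 or more UMIs there, and its part in the cDC1 ratios was not tested.

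Alveolar macrophages had 76.6 CPM of Cxcl16 in BLM and 9.76 CPM in naive (log2 ratio 2.97, 2.58–3.39). T cells were also above 2-fold, at 7.65 and 3.36 CPM, but with 16 and 6 UMIs the interval held 0 (1.19, -0.24–2.83), and cluster 10 had 36 and 7 UMIs (1.38, 0.19–2.80). A UMI was found in 48.2% of BLM and 8.58% of naive alveolar macrophages, and in 7.57% and 0.871% after thinning. No alveolar macrophage held more than 9 UMIs in BLM or 4 in naive, so the difference there was spread over cells. Without integration, the 936 BLM macrophages of the cluster led by Mmp12, Spp1 and Arg1 had 134 CPM, beside 9.85 CPM in the 622 naive alveolar macrophages and 409 and 446 CPM in the 85 BLM and 70 naive interstitial or recruited macrophages. The 936 cells may belong to both macrophage classes, so 134 CPM is not a level of alveolar macrophages alone. As given above, the summed levels of interstitial or recruited macrophage markers and of classical monocyte markers were also higher in the BLM cells of the alveolar class. Their part in this ratio was not tested.

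Cxcr6, the receptor of Cxcl16, had 496 UMIs in each library. γδ T cells had 899 CPM in BLM and 940 CPM in naive, and ILC2 514 and 671 CPM, with T cells holding 72.4% and 51.6% of the UMIs. Activated CD4 T cells stood at 247 CPM in BLM and 133 CPM in naive. In Tregs there were 56 UMIs in 73 BLM cells and 4 in 26 naive cells (log2 ratio 2.30, 0.86–4.22), the 4 naive UMIs all in 1 cell. CD8 T cells had 9.97 and 20.4 CPM.

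**Figure D5:**
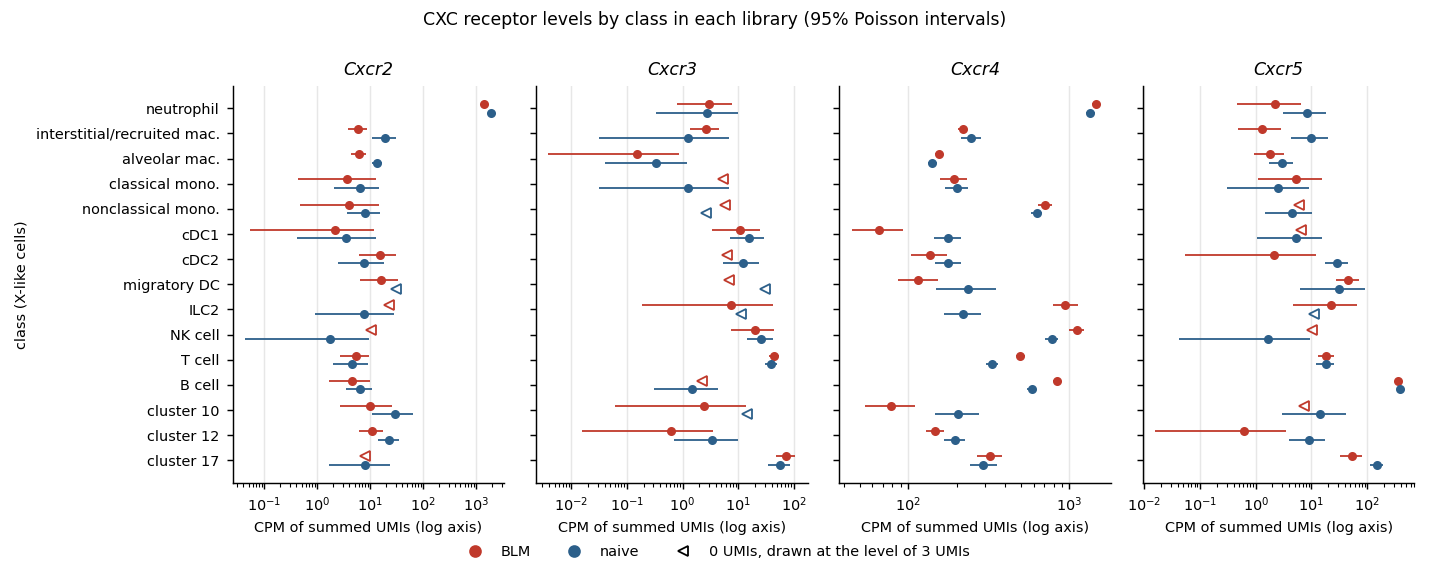
Level of each CXC receptor (CPM of summed UMIs, log axis) in each class of the BLM library (red) and the naive library (blue), drawn as for the ligands. Cxcr2 is at 1418 and 1844 CPM in neutrophils, and at 29.0 CPM or less in every other class. Cxcr4 is at 65.8 CPM or more in every class.

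Cxcr2, the receptor of Cxcl1, Cxcl2 and Cxcl3 on neutrophils, had 2025 UMIs in BLM and 1497 in naive. Neutrophils had 1418 CPM in BLM (1355–1483) and 1844 CPM in naive (1746–1946), a log2 ratio of -0.38 (-0.48 to -0.28). A UMI was present in 72.0% and 86.1% of neutrophils, and in 65.6% and 76.3% after thinning. The lower level in BLM held in the cluster led by Retnlg and S100a9 (1547 and 1947 CPM) and in the cluster led by Acod1 and Csf1 (1195 and 1627 CPM). Thus in the same class Cxcl2 was higher and its receptor lower in BLM. Cells with both genes numbered 687 of 998 BLM neutrophils and 318 of 453 naive neutrophils, where the product of the shares gives 688.7 and 316.0. In alveolar macrophages Cxcr2 had 39 UMIs in BLM and 82 in naive, and 0.606% and 1.11% of cells had a UMI after thinning. B cells, which should lack the gene, had one in 0.409% and 0.712% of cells after thinning. The ratios of Cxcr2 in alveolar macrophages (-1.19) and in interstitial or recruited macrophages (-1.68) are thus ratios of counts close to background. Neutrophil markers in the latter class had a summed level of 215 CPM in BLM and 685 CPM in naive, and their part was not tested.

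Cxcr4, the receptor of Cxcl12, was the receptor with the widest spread over classes, with 7597 UMIs in BLM and 5755 in naive. Neutrophils had the highest level in both libraries, 1454 CPM in BLM and 1349 CPM in naive (log2 ratio 0.11, -0.00–0.22), and NK cells the next (1111 and 781 CPM). Cxcr4 was higher in BLM in B cells (835 and 583 CPM, 0.52, 0.40–0.64), NK cells (0.51, 0.30–0.71) and T cells (498 and 331 CPM, 0.59, 0.44–0.73), in no case 2-fold. Plasma cell markers in the B cell class had a summed level of 352 CPM in BLM and 3299 CPM in naive, and their part was not tested. Within T cells Cxcr4 was higher in γδ T cells (861 and 570 CPM, 0.59, 0.26–0.94) and CD8 T cells (343 and 258 CPM, 0.41, 0.14–0.69). In Tregs the levels were 661 and 482 CPM (0.46, -0.05–0.99). Naive CD4 T cells had the lowest level among T cells, 142 and 146 CPM, and did not differ beyond counting error (-0.04, -0.60–0.51). They numbered 158 in BLM and 225 in naive, and the part of class make-up in the T cell ratio was not tested. CD8 T cells consisted of a cluster with 222 and 250 CPM and a cluster led by Ly6c2 with 434 and 276 CPM, and these held 143 and 133 BLM cells but 190 and 55 naive cells. In ILC2, 27 of 39 BLM cells and 35 of 115 naive cells had a Cxcr4 UMI, at 947 and 219 CPM. cDC1 had a lower level in BLM, 65.8 against 176 CPM (-1.42, -2.05 to -0.83), with a UMI in 34.5% and 45.2% of cells (7.08% and 14.8% after thinning). Nonclassical monocytes (707 and 627 CPM) had a log2 ratio of 0.17 (-0.01–0.36), alveolar macrophages one of 0.13 (0.00–0.27) and interstitial or recruited macrophages one of -0.17 (-0.39–0.05).

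Cxcr3, the receptor of Cxcl9 and Cxcl10 on activated T cells, was rare, with 151 UMIs in BLM and 135 in naive. T cells held 60.9% and 51.9% of them, and the unnamed cluster of cycling lymphocytes 18.5% and 15.6%. T cells had 44.0 CPM in BLM and 39.2 CPM in naive (log2 ratio 0.17, -0.30–0.64). Activated CD4 T cells had 132 CPM (99.2–173) in BLM, where they numbered 172, and 213 CPM (137–317) in naive, where they numbered 47, and CD8 T cells 32.4 and 20.4 CPM. The CD8 T cluster led by Ly6c2 had a Cxcr3 UMI in 14.3% of BLM and 14.5% of naive cells, against 2.80% and 2.11% in the other CD8 T cluster. In Tregs there were 6 UMIs in 5 of 73 BLM cells and 12 UMIs in 6 of 26 naive cells, at 25.4 CPM (9.33–55.3) and 145 CPM (74.7–253). These 18 UMIs are below the minimum of 20 used for a ratio. B cells had 0 UMIs in BLM, where 3 UMIs would give 2.25 CPM, and 1.47 CPM in naive.

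Cxcr5, the receptor of Cxcl13, marked B cells, which had 353 CPM in BLM (322–387) and 393 CPM in naive (366–421), a log2 ratio of -0.15 (-0.32–0.01). A UMI was found in 40.4% and 52.6% of B cells, and in 25.4% and 32.0% after thinning. Plasma cell markers in the B cell class stood at 352 CPM in BLM and 3299 CPM in naive, with 4 of 5 at least 2-fold lower in BLM, and their part was not tested. Over all cells Cxcr5 was lower in BLM (27.3 and 56.9 CPM, -1.06, -1.21 to -0.91), and B cells made up 14.5% and 21.5% of the cells. The CD8 T cluster led by Ly6c2 had Cxcr5 in 15 of 133 BLM and 7 of 55 naive cells, and migratory dendritic cells in 13 of 69 and 2 of 15 cells. In cDC2 there were 1 and 19 UMIs, 9 of the 19 in 1 cell, beside the B cell markers of that class given above (40.4 and 148 CPM), whose part was not tested.

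Genes of the wider CXC system were counted from lists, whose members had been picked for their roles. Of 9 other CXC ligands 8 were listed in at least 1 table, and 6 had 20 or more UMIs over all kept cells, 4 of them at least 2-fold higher in BLM and 0 lower, beside 5.19% of all genes higher and 6.72% lower. In interstitial or recruited macrophages 2 of 5 were at least 2-fold higher and 2 lower. Cxcl14 (41.9 and 4.99 CPM, log2 ratio 3.07) and Ppbp (9.50 and 1.25 CPM, 2.93) were higher there, and Cxcl12 (3.46 and 17.5 CPM, -2.34) and the platelet chemokine Pf4 (272 and 968 CPM, -1.83) were lower. In the naive cells of this class 1 UMI gives 1.25 CPM, so the naive levels of Cxcl14 and Ppbp rest on very few UMIs. Cxcl12, the ligand of Cxcr4, had 685 UMIs in BLM and 97 in naive, of which cluster 10 held 93.9% and 69.1%. Cxcl13, the ligand of Cxcr5, had 1189 and 291 UMIs, of which interstitial or recruited macrophages held 65.3% and 79.0%, and its level there was 168 and 287 CPM (-0.78, -0.99 to -0.56), with 121 of 230 naive UMIs in 1 cell. Among the other receptors Cxcr1 alone had 20 or more UMIs in neutrophils, with 13 UMIs in BLM and 22 in naive (-1.66).

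In neutrophils, the class with most Cxcl2 and Cxcr2, 12 genes of ligand induction and mRNA decay passed the minimum, 3 of them at least 2-fold higher and 3 lower. Of all genes in neutrophils 3.82% were at least 2-fold higher and 6.74% lower. Nfkb1 (1.35) and Rel (1.22), subunits of NF-kB, were among the higher ones, and Irf7 (-1.37) and Irf1 (-1.03), of the interferon response, among the lower ones (log2 ratios of BLM to naive). Of 8 genes of late-stage neutrophils 4 were at least 2-fold higher and 0 lower, namely the chemokines Ccl3 (2.27) and Ccl4 (1.57), Tnf (1.82) and Siglecf (1.13). Of 8 genes of neutrophils newly released from marrow 2 were at least 2-fold higher, Camp (4.14, 66 and 2 UMIs) and Ltf (1.20), and 1 was lower, Ly6g (28.3 and 98.7 CPM). Of 9 immediate-early and heat shock genes, which tissue digestion can induce, 2 were lower, Egr1 (-2.44) and Fos (-1.75), and 0 were higher, with a list median of -0.35. That list is given because Cxcl2 can respond to the same handling. In alveolar macrophages 5 of its 11 genes were at least 2-fold lower and 1 higher in BLM, and in classical monocytes 1 was lower and 3 were higher. Of all genes 10% were lower and 6.23% higher in alveolar macrophages, and 5% lower and 3.81% higher in classical monocytes. The part of the immediate-early and heat shock genes in the Cxcl2 ratios was not tested. Receptor signalling genes were mostly alike in neutrophils, where 11 of 12 lay within 2-fold and Rgs1 was higher (1.27), and 7 of 7 ligand processing and adhesion genes lay within 2-fold.

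In interstitial or recruited macrophages, the class with most Cxcl1, Cxcl10 and Cxcl16 of BLM, 0 of 12 induction genes were at least 2-fold higher and 4 were lower: Rela (-1.44), Irf1 (-1.26), Nfkbiz (-1.09) and Zfp36 (-1.07). Of 9 processing and adhesion genes 4 were lower, among them Dpp4 (-2.35), whose protease clips CXC ligands, and Icam1 (-1.75). Of 11 immediate-early and heat shock genes 4 were lower and 0 higher. Of all genes in this class 6.43% were at least 2-fold higher and 10.8% lower. Of 5 neutrophil markers with 20 or more UMIs in this class 4 were at least 2-fold lower in BLM. In T cells Rgs1, which dampens receptor signalling, was higher (2.22), and 10 of 11 signalling genes lay within 2-fold. Sdc4 was also higher there (1.34), and 8 of 9 processing and adhesion genes lay within 2-fold. In B cells Rgs1 (1.44) was the signalling gene out of 12 that was not within 2-fold. Of all genes 6.33% were at least 2-fold apart in T cells and 6.38% in B cells.

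The genes whose pattern over 39 class-by-library levels was most like that of each member were searched among 10919 genes, by Pearson's r on log2(CPM + 10). These levels share their libraries and their classes, so r is given as a description only. Cxcl2 was followed most closely by Ier3 (r = 0.82) and Ccrl2 (0.81), and Cxcl3 by Cxcl2 (0.78) and Ptgs2 (0.71). For Cxcl1 the genes were C4b (0.91) and B3galnt1 (0.88), for Cxcl9 Cd163 and Adap2 (0.77 each), for Cxcl10 Glrx (0.69) and Ap3s1 (0.66), and for Cxcl16 Flrt3 (0.94) and Ccnd1 (0.91). Among receptors they were Sycp2 and Stfa2l1 for Cxcr2 (0.95 each), Zbtb25 (0.81) and Tigit (0.78) for Cxcr3, Rac2 (0.80) and Sik1 (0.78) for Cxcr4, and Cacna1e (0.86) for Cxcr5. Between members the highest values after Cxcl2 and Cxcl3 were those of Cxcl9 with Cxcl16 (0.75) and Cxcl1 with Cxcl2 (0.63), and the lowest was that of Cxcl16 with Cxcr4 (-0.64).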

How the data were processed

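Living CD45+ lung leukocytes of 3 pooled mice per group were measured as 1 library each. For either library the deposited file is a matrix of whole UMI counts that the authors had not normalised. Its header names version 1.8 of the BD Rhapsody WTA Analysis Pipeline, the genome GRCm38 and the annotation GENCODE vM19. A gene absent from a table was counted as 0. The tables held 4714 BLM barcodes (22490782 UMIs) and 4062 naive barcodes (18019004 UMIs).

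Filters required 200 genes per barcode and no more than 15% of UMIs from mitochondrial genes, and the 3% with the highest Scrublet scores (scanpy 1.11.5) were left out (133 BLM, 105 naive), because the automatic thresholds marked 8 and 61 barcodes. Integration used Seurat 5.3.0 (R 4.3.3, canonical correlation anchors, 2000 variable genes without 24 CXC and atypical receptor genes, 30 dimensions, resolution 0.5), and T-like clusters were integrated again with 20 dimensions. Clusters were named by their best marker score, or by the class with more markers among the 10 leading genes of the cluster where that was another class. Names were withheld where the score was below 0.3, fewer than 3 markers were detected, cell-cycle genes led, or the score was not at least 0.1 above that of every other class while fewer than 2 markers, or no more than for another class, were among the leading genes. The cDC2 cluster and 1 of the B cell clusters were named from their leading genes, with a higher score for plasmacytoid dendritic cells and plasma cells. T-like clusters were named together. Class names were rebuilt here and can differ from those of the study.

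UMIs were summed per class and library and divided by all UMIs of the same cells (CPM). Levels have exact Poisson intervals, shares exact Clopper-Pearson intervals and log2 ratios exact conditional intervals, all at 95% and for counting error only. Where no UMI was found, 3 UMIs served as the floor. Ratios were called at 2-fold among genes with 20 or more UMIs over both libraries. With 1 library per group no p-value was computed. The counting script was tested on simulated data. The 10 members were always named, with the 2 genes of most similar pattern for each, Cxcr6, and up to 4 genes a list that were 2-fold apart in the class holding most of a member's UMIs. Marker genes given as checks, Cxcl12 and Cxcl13 were named after their values were seen. The members and lists were chosen with earlier results of these data known. The alternatives concerned filters, doublets, clustering, integration, scaling, weighting of cells, the top cell and, added after seeing the data, free RNA. Promoter sequences are RefSeq's (GRCm38.p6). Protein sequences were not used here. Values of 2 genes that the naming rule picked are not reported here.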

Additional observations from a re-analysis of the deposited data

Results flagged for a closer look

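For 3 members the ratio of BLM to naive lay above 0 in some classes and below 0 in others, with both intervals clear of 0. The log2 ratio of Cxcl10 was 2.04 in NK cells and -3.33 in cDC2. The former rested on 1 cell with 27 of 31 BLM UMIs. The log2 ratio of Cxcl16 was 2.97 in alveolar macrophages and -0.45 in cDC1. The log2 ratio of Cxcr4 was 0.59 in T cells and -1.42 in cDC1. With 1 library per group these differences between classes were not tested.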

How the results depend on the processing

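Of 35 log2 ratios of 2-fold or more in classes, T cell classes and all cells, 32 kept their sign and 24 stayed at 2-fold or more under every alternative that could be computed for them. The 3 that changed sign or reached 0 did so without the cell with most UMIs of the gene: Cxcl10 in NK cells (0.00), Cxcl9 in alveolar macrophages (0.53) and Cxcl9 in interstitial or recruited macrophages (4.16). Numbers of members at least 2-fold apart moved by over 1.5 times with a minimum of 1 UMI in B cells (4), NK cells (5), classical monocytes (4), interstitial or recruited macrophages (5) and nonclassical monocytes (2). A minimum of 50 UMIs gave 1 in NK cells, 2 in T cells, 1 in cDC2 and 1 in classical monocytes. Keeping doublets gave 2 in B cells and 2 in nonclassical monocytes. Nonclassical monocytes also had 2 with at most 10% mitochondrial UMIs, 2 at resolution 0.3 and 1 without integration, and NK cells had 1 with the mean of per-cell CPM. The share of Cxcl2 UMIs in neutrophils was 41.9% in BLM and 42.7% in naive with doublets kept. Without integration no alveolar macrophage ratio could be computed, as 0 BLM cells fell in that class. At resolution 0.3 there was no classical monocyte class. The causes of these moves were not tested. After thinning, 115 of 133 shares of cells with a UMI left their counting interval. The share with a Cxcl16 UMI in BLM alveolar macrophages, for example, went from 48.2% to 7.57%, so shares are limited by depth. No paired analysis was possible because each group had 1 library.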
